A study of Drosophila melanogaster with 6 samples.

Results

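The vacuolar ATPase (V-ATPase) genes of *Drosophila melanogaster* were examined in flies fed methamphetamine (METH). A gene counted as a member if its current or older symbol begins with Vha and a probe set, a group of oligonucleotides that reads 1 transcript, was paired with that gene alone. Of 35 such genes 33 had a probe set of their own, out of 11982 genes with 1 on the array, and the remaining pair, Vha68-1 and Vha68-2, which encode the main forms of subunit A, was not analysed here. Current symbols name ATP6AP2 and CG5421, which entered through their older names VhaM8.9 and VhaAC45-2. The METH samples came from w1118 virgin males, 5 days old, kept for 24 h on the blue diet with 0.6% (w/v) methamphetamine, and the control samples came from males of the same strain and age on the blue diet with 0% methamphetamine. Each sample was RNA from the whole bodies of 20 pooled flies on an Affymetrix Drosophila Genome 2.0 array, with 3 biological replicates per diet and 6 arrays in all. In RNA from a whole body, fewer cells of a type and less RNA per cell cannot be told apart.

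The V-ATPase is a rotary pump that uses ATP to move protons across membranes. Its cytosolic domain, V1, is built of subunits A to H and splits ATP, and its membrane domain, V0, is built of subunits a, c, c'', d and e and carries the protons. The pump acidifies lysosomes and endosomes, drives the loading of transmitters into synaptic vesicles, and energises ion and fluid transport in the Malpighian tubules, the renal organs of insects. Amphetamines are weak bases and can build up in the acidic compartments that this pump maintains. For several subunits the fly genome carries extra copies, a number of which are transcribed mainly in the testis.

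None of the 33 V-ATPase genes was called higher or lower in METH-treated flies (limma, adjusted p under 0.05 after Benjamini-Hochberg adjustment over 18769 probe sets). Over all probe sets 1.26% were called, 0.842% higher and 0.416% lower. The smallest adjusted p of a V-ATPase gene was 0.401, for Vha14-2. At an unadjusted p under 0.05 1 V-ATPase gene was higher (3.03%) and none lower, against 9.38% higher and 2.12% lower over all probe sets. With 1 array left out, 6 V-ATPase genes were higher at that p without METH replicate 1 and 7 without control replicate 2. The count was 2 without METH replicate 2, 1 without control replicate 3 and 0 without METH replicate 3 or control replicate 1. The median probe set moved too, to 0.31 without METH replicate 1 and 0.30 without control replicate 2. It stood at 0.18 without METH replicate 3 and 0.16 without control replicate 1, against 0.24 on all arrays (log2 scale, signals set against actin). No share over all probe sets was set beside these counts, so whether they exceed the background was not tested. A t-test at an unadjusted p under 0.008 and over 1.5-fold, thresholds the study applied to the arrays, also called 0 of the 33 genes, against 1.25% of probe sets higher and 0.33% lower. All values below are log2 fold changes, METH minus control, of signals set against the actin probe set of the same array, unless the signal as deposited is named.

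The direction of these changes depended on the actin reference. The actin probe set itself had signals of 831, 868 and 700.0 on the METH arrays, against 1218, 922 and 984 on the control arrays, and its mean log2 signal differed by -0.38. With that reference 31 of the 33 genes had a log2 fold change above 0 (93.9%), as had 74.5% of all probe sets. As deposited, 28 of the 33 genes had a log2 fold change below 0 (84.8%), as had 69.4% of all probe sets. The median V-ATPase gene changed by 0.24 with the actin reference and by -0.13 as deposited, and the median probe set by 0.24 and -0.13 on the same scales. Relative to the median probe set, 17 V-ATPase genes lay above and 16 below. Without METH replicate 3, the array with the lowest actin signal, the median was 0.13 for the V-ATPase genes and 0.18 for all probe sets.

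**Figure D1:**
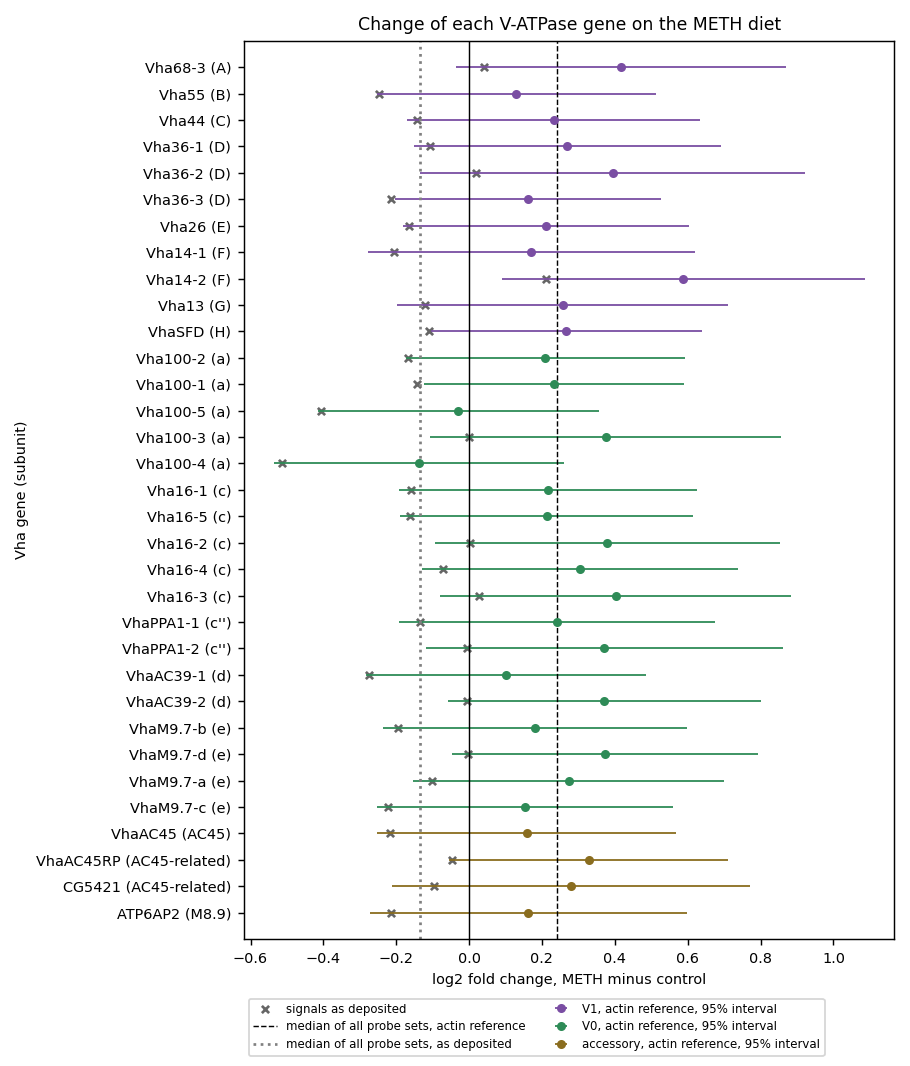
Log2 fold change of each of the 33 V-ATPase genes, METH minus control, with the subunit in brackets: circles and bars are the limma estimate and 95% interval with the actin reference, coloured by domain, and crosses are the estimate from signals as deposited. Vertical lines mark 0 and the median of all probe sets on each scale (0.24 and -0.13). Apart from Vha14-2 (0.09 to 1.09), every interval includes 0, and the circles gather around the dashed line, with Vha100-4 (-0.14) and Vha100-5 (-0.03) to the left of 0.

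All 33 genes gave signals well over those of the 17 tag control probe sets, which ranged from 0.216 to 18.6 on single arrays. The lowest signal of a V-ATPase gene on any array was 71.5, for CG5421, and the highest 5498, for Vha13. Because probe sets differ in how well their probes bind, these signals place probe sets and not the transcript levels of different genes. The control signals of all 33 probe sets lay above the median of the array (65.2), so a split at the median separated nothing. At the 75th percentile of control signal (316), 22 genes lay above and 11 below, with Vha100-3 just above (386) and Vha36-2 just below (290.0). The widest step between neighbouring genes lay between Vha100-2 (2062) and Vha68-3 (979). This step, chosen after the values were seen, left 13 genes above it, which held 1 gene for each of subunits B, D, E, F, G, H, a, c, c'', d and e together with the accessory genes VhaAC45 and ATP6AP2. The 20 genes below it held Vha68-3 and Vha44, the genes measured here for subunits A and C, and the further copies of subunits a, c, c'', D, F, d and e and of AC45.

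**Figure D2:**
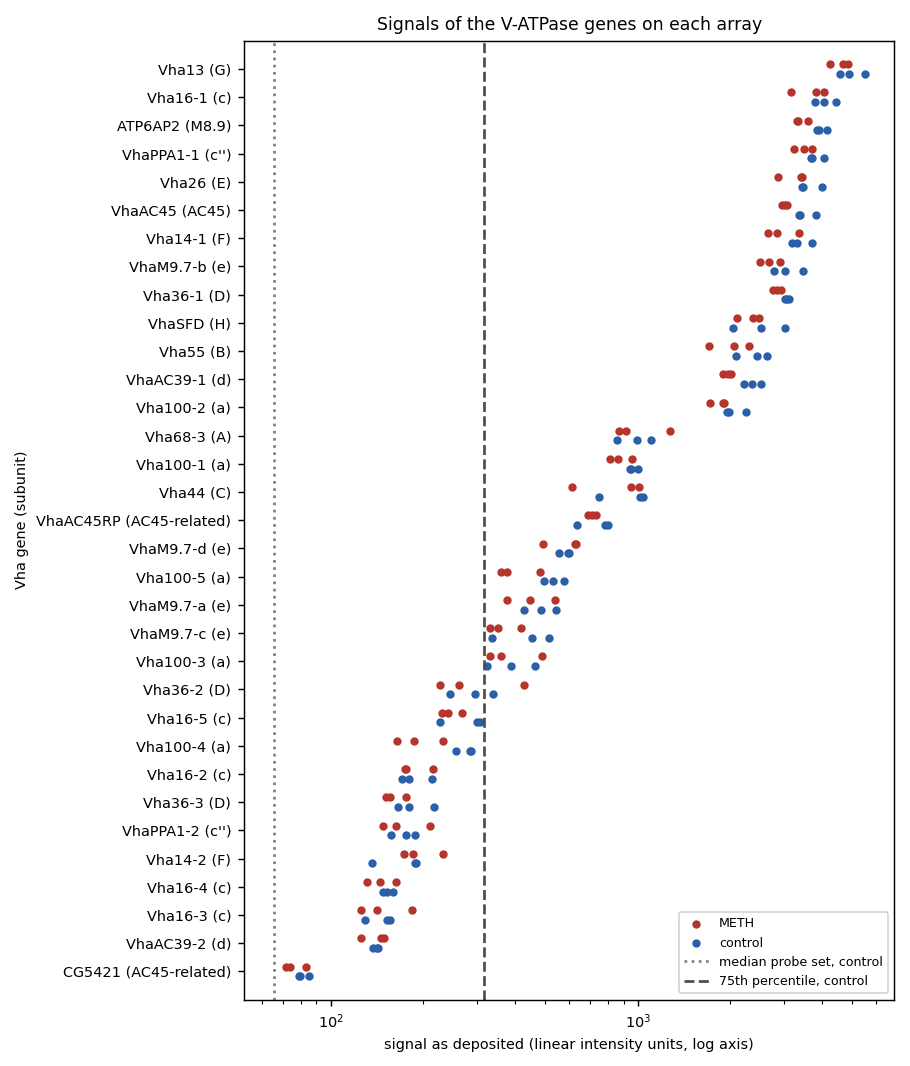
Signal as deposited of each V-ATPase gene on the 3 METH arrays (red) and the 3 control arrays (blue), in linear intensity units on a log axis, ordered by control signal. The dotted and dashed lines mark the median (65.2) and the 75th percentile (316) of all probe sets on the control arrays, and the widest step lies between Vha100-2 and Vha68-3.

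Values for single arrays are given as a percentage of the actin reference. Among the V1 genes, Vha55 encodes subunit B, which alternates with subunit A in the ring that binds ATP. It stood at 276, 237 and 244% on the METH arrays and at 218, 265 and 212% on the control arrays, and the groups overlapped (log2 fold change 0.13, SE 0.18, 95% interval -0.25 to 0.51, adjusted p = 0.739). Vha68-3, the copy of subunit A measured here, stood at 105, 147 and 131% in METH-treated flies and at 70.4, 119.5 and 101% in control flies. Its fold change was the second largest of the 33 (0.42, SE 0.21, interval -0.04 to 0.87, adjusted p = 0.444), and METH replicate 1 lay between control replicates 2 and 3. In the RefSeq annotation (assembly Release 6 plus ISO1 MT) Vha68-3 lies beside Vha68-2 with no protein-coding gene between them, and 1 such gene separates it from Vha68-1.

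Subunits E and G form the stalks at the edge of the pump that hold V1 still against the turning rotor. Vha26, for subunit E, stood at 408, 396 and 410.3% on METH arrays, all above the 326, 376 and 349% on control arrays (0.21, SE 0.18, interval -0.18 to 0.60, adjusted p = 0.59). Vha13, for subunit G, stood at 563, 486 and 694% in METH-treated flies and at 452, 496 and 498% in control flies (0.26, SE 0.21, interval -0.20 to 0.71, adjusted p = 0.573), so METH replicate 2 fell among the controls. Subunits C and H sit between V1 and V0 and take part in the regulated separation of the domains. VhaSFD, for subunit H, stood at 298, 273 and 302% on METH arrays, above 248, 222 and 256% on control arrays (0.27, SE 0.17, interval -0.11 to 0.64, adjusted p = 0.492). Vha44, for subunit C, stood at 114, 116 and 87.3% in METH-treated flies and at 85.7, 110.0 and 75.9% in control flies (0.23, SE 0.19, interval -0.17 to 0.63, adjusted p = 0.563). Replicate 3 was the lowest array of each diet.

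The central rotor is formed by subunits D and F. Vha36-1, for subunit D, stood at 332, 328 and 419% with METH and at 255, 333 and 308% without (0.27, SE 0.20, interval -0.15 to 0.69, adjusted p = 0.529). Its further copies Vha36-2 and Vha36-3 had log2 fold changes of 0.39 and 0.16. Vha14-1, for subunit F, stood at 343, 306 and 479% on METH arrays and at 304, 345 and 335% on control arrays (0.17, SE 0.21, interval -0.28 to 0.62, adjusted p = 0.703). The other copy of subunit F, Vha14-2, had the largest log2 fold change of the 33 genes. It stood at 20.9, 26.8 and 26.6% in METH-treated flies and at 11.2, 20.4 and 19.2% in control flies, with every METH array above the controls. The fold was 1.5, with an interval from 1.06 to 2.12 (log2 fold change 0.59, SE 0.23, unadjusted p = 0.0243, adjusted p = 0.401). As deposited, its signals were 174, 233 and 186 on METH arrays and 136, 188 and 189 on control arrays, and the groups overlapped, with control replicate 1 the lowest. Of the 11 V1 genes all had a log2 fold change above 0 with the actin reference, with a median of 0.26.

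In V0, subunit a is the large membrane protein that forms the channels by which protons reach and leave the rotor, and the fly has 5 genes for it. Vha100-2 stood at 207, 219.6 and 270.1% on METH arrays and at 185, 215 and 199% on control arrays (0.21, SE 0.18, interval -0.17 to 0.59, adjusted p = 0.584). Vha100-1, the form known from synapses, had a log2 fold change of 0.23, and Vha100-3 one of 0.37. The remaining genes of subunit a were the only members below 0 with the actin reference. Vha100-4, known to be needed for acid secretion by the copper cells of the midgut, stood at 19.8, 26.9 and 26.6% in METH-treated flies and at 23.6, 30.8 and 25.98% in control flies (-0.14, SE 0.18, interval -0.54 to 0.26, adjusted p = 0.733). Vha100-5 stood at 43.3, 55.4 and 53.6% with METH and at 43.4, 62.4 and 50.5% without (-0.03, SE 0.18, interval -0.42 to 0.36, adjusted p = 0.945). Neither pair of groups separated on this scale.

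As deposited both genes lay lower on every METH array than on any control array. Vha100-4 had signals of 165, 233 and 186 on METH arrays, against 287, 284 and 256 on control arrays (log2 fold change -0.51, adjusted p = 0.182). Vha100-5 had signals of 359.9, 481 and 375 on METH arrays, against 528, 576 and 497 on control arrays (log2 fold change -0.41). In all, 7 of the 33 genes lay below every control array as deposited (21.2%), against 13.6% of all probe sets: ATP6AP2, VhaAC45, Vha36-1, VhaAC39-1, Vha100-2, Vha100-5 and Vha100-4. That share was larger among bright probe sets. Of the 22 genes above the 75th percentile of control signal 6 lay so, against 1084 of the 4693 probe sets above it. With the actin reference none of the 33 lay below every control array, against 2.58% of all probe sets, and 5 lay above every control array (15.2%), against 15.7%: Vha16-1, Vha26, VhaSFD, Vha14-2 and VhaAC39-2. No gene lay above every control array as deposited, against 2.61% of all probe sets. At an unadjusted p under 0.05 5 of the 33 genes were lower as deposited and none higher, against 9.33 and 1.78% of all probe sets, and none was called on that scale, against 2.64%. Above the 75th percentile of control signal, 4 of the 22 genes were lower at that p, against 929 of the 4693 probe sets. Vha100-4 is the neighbour of Vha100-2 in the RefSeq annotation, with no protein-coding gene between them, and the difference between their changes (-0.14 and 0.21) was not tested.

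**Figure D3:**
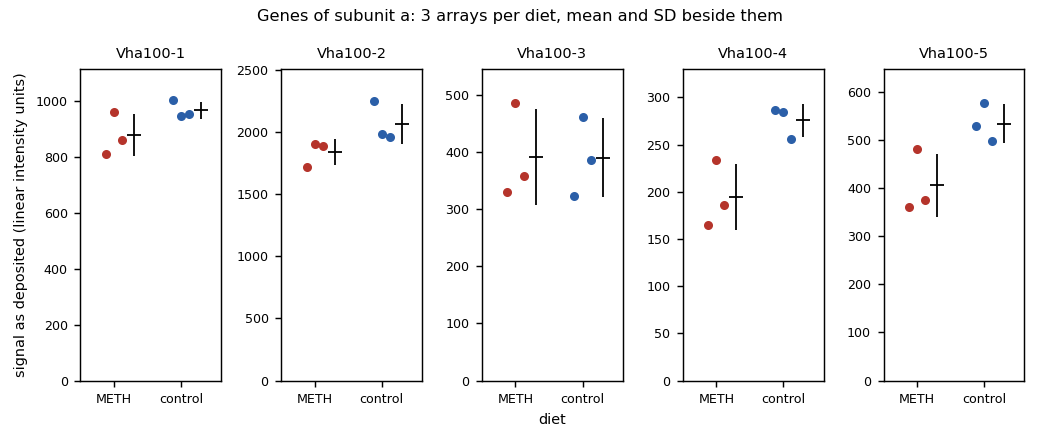
Signals as deposited of the 5 genes of subunit a, in linear intensity units from 0, with the 3 METH arrays (red) left of the 3 control arrays (blue) in each panel and the mean and SD beside them. METH and control arrays do not overlap for Vha100-2, Vha100-4 and Vha100-5, whereas they overlap for Vha100-1 and Vha100-3.

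Subunits c and c'' make up the ring of proteolipids that turns in the membrane as protons pass. Vha16-1, for subunit c, stood at 485, 440.0 and 453% in METH-treated flies, narrowly above 365, 439 and 384% in control flies (0.22, SE 0.19, interval -0.19 to 0.63, adjusted p = 0.594). Its second probe set gave 0.20 (SE 0.19, adjusted p = 0.625), in the same direction. The other genes of subunit c had log2 fold changes of 0.38 (Vha16-2), 0.40 (Vha16-3), 0.30 (Vha16-4) and 0.21 (Vha16-5). Vha16-2 and Vha16-3 are adjacent genes in the RefSeq annotation, with no protein-coding gene between them. VhaPPA1-1, for subunit c'', stood at 389.6, 402 and 526% on METH arrays and at 332, 401 and 374% on control arrays (0.24, SE 0.20, interval -0.19 to 0.68, adjusted p = 0.578). Its copy VhaPPA1-2 had a log2 fold change of 0.37.

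Subunit d joins the ring to the central rotor. VhaAC39-1 stood at 242, 218 and 281% with METH and at 207, 241 and 241% without, the smallest change among the 13 genes above the widest step in signal (0.10, SE 0.18, interval -0.28 to 0.49, adjusted p = 0.803). VhaAC39-2, the other gene of subunit d, stood at 15.2, 16.8 and 21.3% on METH arrays, above 11.7, 14.9 and 14.4% on control arrays (0.37, SE 0.20, interval -0.06 to 0.80, unadjusted p = 0.0842, adjusted p = 0.451). Subunit e is a small membrane protein of V0, with 4 genes. VhaM9.7-b stood at 322, 289 and 415% in METH-treated flies and at 285, 302 and 308% in control flies (0.18, SE 0.19, interval -0.24 to 0.60, adjusted p = 0.663). VhaM9.7-d stood at 59.1, 71.8 and 90.3% with METH and at 45.5, 64.6 and 60.2% without (0.37, SE 0.19, interval -0.05 to 0.79, unadjusted p = 0.0778, adjusted p = 0.448), and VhaM9.7-a and VhaM9.7-c had log2 fold changes of 0.27 and 0.15. METH replicate 3, the array with the lowest actin signal, was the highest of the 6 arrays for all 4 genes of subunit e. The same held for many other V-ATPase genes, among them Vha13 and VhaPPA1-1. The 18 V0 genes had a median of 0.24.

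The accessory proteins AC45 and ATP6AP2 (known in mammals as the prorenin receptor) bind V0 and take part in its assembly and sorting. VhaAC45 stood at 355, 348 and 438% on METH arrays and at 312, 368 and 339.8% on control arrays (0.16, SE 0.19, interval -0.25 to 0.57, adjusted p = 0.7). ATP6AP2 stood at 398, 383 and 513% with METH and at 339, 422 and 389.7% without (0.16, SE 0.20, interval -0.27 to 0.60, adjusted p = 0.709). VhaAC45RP, a relative of AC45, stood at 82.9, 81.8 and 105% in METH-treated flies and at 64.1, 86.6 and 64.5% in control flies (0.33, SE 0.18, interval -0.05 to 0.71, unadjusted p = 0.0866, adjusted p = 0.453). CG5421, also named VhaAC45-2, had a log2 fold change of 0.28. The 4 accessory genes had a median of 0.22.

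The 13 genes above the widest step moved by similar amounts. Their log2 fold changes lay between 0.10 and 0.27 with a median of 0.21 and an SD of 0.053. Of all probe sets with at least their control signal, 794 in number, the middle 80% (10th to 90th percentile) lay between -0.13 and 0.46 around a median of 0.29, with an SD of 0.333, and 24.7% fell in the range of the 13. The 95% intervals of the 13 genes lay between a fold of 0.821, the lower bound for VhaAC39-1, and a fold of 1.64, the upper bound for Vha13, with the actin reference. The other 20 genes spread from -0.14 to 0.59, with a median of 0.32 and an SD of 0.162. These figures describe genes grouped by the control arrays that also enter the fold change, and the difference between the groups was not tested.

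**Figure D4:**
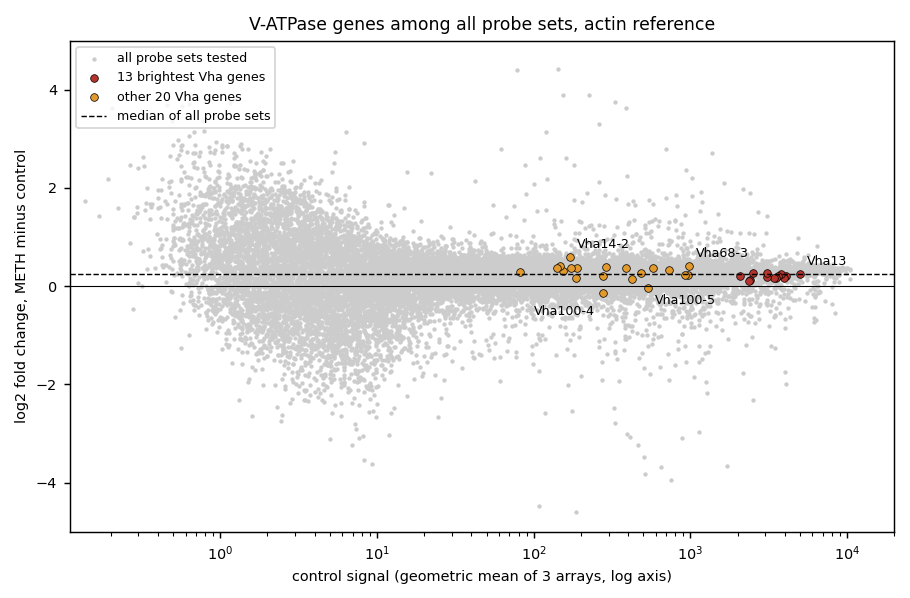
Log2 fold change, METH minus control with the actin reference, against control signal (geometric mean of 3 arrays, log axis) for all probe sets tested (grey), the 13 V-ATPase genes above the widest step (red) and the other 20 (orange). The red points lie between 0.10 and 0.27, close to the dashed median of all probe sets (0.24), and the orange points between -0.14 and 0.59.

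The 20 other genes, which are the further copies, the AC45 relatives, Vha68-3 and Vha44, were also set against the 13 genes on the same array, which takes the scaling of the arrays out of the comparison. Relative to the median of the 13 genes on each array, 18 of these 20 genes had a difference above 0, against 62.6% of all probe sets, whose median was 0.10 on that scale. The genes below 0 were Vha100-4 (-0.28) and Vha100-5 (-0.17). METH arrays lay above all control arrays for Vha14-2, VhaAC39-2 and CG5421 (15.0%), against 11.0% of all probe sets on that scale, and below for none, against 5.18%. No V-ATPase gene was called (smallest adjusted p = 0.53), against 1.81% of all probe sets. The 13 genes were picked by the control arrays that also enter these differences, so the counts on this scale only describe the genes. The shares over all probe sets cover every signal level and not the range of the 20 genes. The 11 genes under the 75th percentile of control signal had a median change of 0.37, against 0.22 for the 22 above it. Without METH replicate 3 these medians were 0.13 for the 11 genes and 0.14 for the 22, and their order turned.

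Signals as deposited were also summed over the genes. The 13 genes together had 37568 to 38410 units on the METH arrays and 40811 to 46606 on the control arrays, and the groups did not overlap. The other 20 genes had 7058 to 8389 units on the METH arrays and 7824 to 8354 on the control arrays, and the groups overlapped. The 22 genes above the 75th percentile had 43550 to 43848 units on METH arrays and 47006 to 52748 on control arrays, without overlap. The 11 genes under the 75th percentile together had 1777 to 2109 units on the METH arrays and 2082 to 2098 on the control arrays, and the groups overlapped. Over all probe sets the groups did not overlap either, with sums of 6623478 to 7099372 units on the METH arrays and 7210329 to 7740739 on the control arrays.

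**Figure D5:**
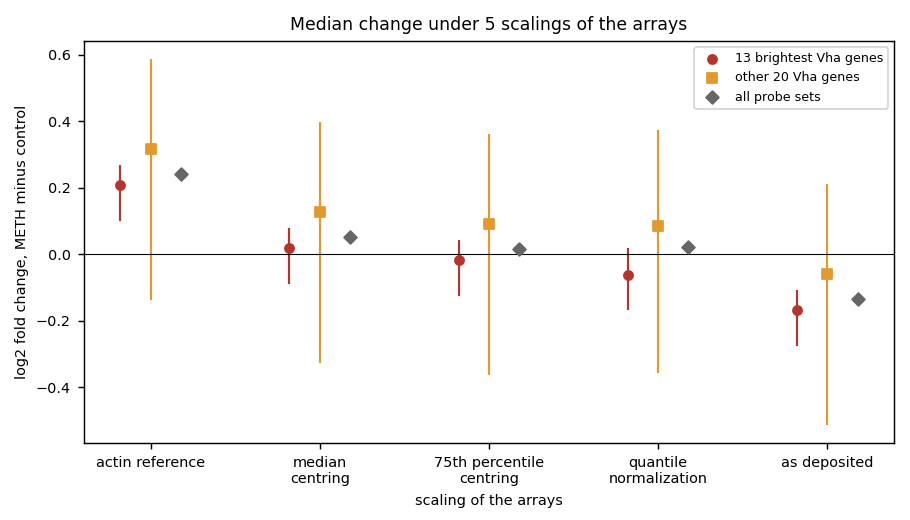
Median log2 fold change, METH minus control, of the 13 V-ATPase genes above the widest step (red), of the other 20 (orange) and of all probe sets (grey) under 5 scalings of the arrays, with vertical lines for the lowest and highest gene of each group. The median of the 13 genes runs between 0.21 with the actin reference and -0.17 as deposited. Every scaling except quantile normalization shifts all genes alike, so the distance between the groups can change under that setting alone, where the medians are -0.0627 for the 13 genes and 0.0845 for the other 20.

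Genes that work with the pump were counted in the same fit. Among those for its assembly and regulation, 3 of 5 had a probe set and none was called. They were Rbcn-3B (-0.18), a subunit of the rabconnectin complex that regulates the pump, CG5969 (0.17), the counterpart of the yeast assembly factor Vma21, and Mitf (0.29), a transcription factor of V-ATPase and lysosome genes whose signals of 9.67 to 15.3 lay within the range of the tag controls. Of 20 lysosome genes 16 were measured and none was called, with a median of 0.21. The smallest p belonged to Gal, a beta-galactosidase (-0.57, SE 0.20, adjusted p = 0.32), which as deposited had signals of 282, 361 and 352 on METH arrays, against 588, 697 and 633 on control arrays (-0.95, adjusted p = 0.00312). Of 16 genes of TOR signalling at the lysosome 13 were measured, with a median of 0.25 and no call. Their smallest p belonged to path, an amino acid transporter, which stood higher with METH (0.68, SE 0.16, adjusted p = 0.0797).

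Among ion and water transport genes that act beside the pump in tubules, 21 of 23 were measured, with a median of 0.10 and no call. NKCC, a sodium, potassium and chloride cotransporter, had the smallest p (0.37, SE 0.18, adjusted p = 0.442). Of 12 genes of the synapse, most of them vesicle proteins or transmitter transporters but including elav, a nuclear protein of neurons, 10 were measured, with a median of 0.13 and no call. nSyb, the synaptobrevin of neurons, had the smallest p (0.36, SE 0.19, adjusted p = 0.453). Vmat, the vesicular monoamine transporter, which exchanges protons for dopamine and related amines, had a log2 fold change of 0.05.

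Markers of several tissues were measured in the same samples, and their part in the changes above was not tested. For the Malpighian tubule 6 of 8 markers were measured. None was called with the actin reference, whereas Alp4 and Oatp58Db were called lower as deposited and Alp4 also with 75th percentile and quantile scaling, and their summed signal as deposited was 3127 to 3911 on METH arrays and 4803 to 5326 on control arrays. Of 8 midgut markers 7 were measured. The serine proteases Jon25Bi (-2.98, adjusted p = 1.48e-05) and Jon25Bii (-3.25, adjusted p = 3.83e-06) fell, and under the other scalings too. The maltase Mal-B1 rose (1.56, adjusted p = 0.00722), a call kept with median centring but lost as deposited (adjusted p = 0.14) and with 75th percentile and quantile scaling. Jon65Aiii was called lower as deposited and with quantile normalization. The midgut markers had sums of 12300 to 12602 on METH arrays and 15829 to 17295 on control arrays. For the testis 11 of 12 markers were measured, with a median of 0.40, no call and sums of 20389 to 23215 with METH and 20359 to 22274 without. Signals of bam and aly, which act early in the male germ line, were 6.31 to 18.6 over all arrays, about the level of the tag controls. Of 5 accessory gland markers Acp26Aa fell (-1.55, adjusted p = 0.00303), joined by Acp53Ea as deposited and with quantile normalization and by Acp62F as deposited, with sums of 11683 to 14627 with METH and 18660 to 21258 without. None of the nervous system markers measured, 5 of 6, was called (median 0.20, sums of 206 to 263 with METH and 247 to 272 without), nor, with the actin reference, either of the muscle markers measured, 2 of 5 (median -0.10, sums of 4217 to 5338 with METH and 6075 to 8031 without). Of these Act88F was called lower as deposited (adjusted p = 0.0499). A further name in the muscle list was mistyped, matched no gene and counts among those not measured. Of 6 female reproductive markers, measured as a check of the labelled sex, Yp3 had signals of 79.1 to 128 and the others 0.806 to 22.4 over all arrays, and none was called (median 0.34, sums of 101 to 149 with METH and 121 to 153 without).

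Rank correlations of all probe sets were 0.968 to 0.975 between arrays of 1 diet and 0.966 to 0.972 between diets. With the actin reference METH replicate 3 stood highest for the V-ATPase genes (median deviation 0.37 on the log2 scale), and this array had the lowest actin signal (700.0). Control replicate 1 stood lowest (-0.23) and had the highest actin signal (1218). The number of arrays limits the precision.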

How the data were processed

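RNA of whole w1118 males on the METH or the control diet was measured on 3 Affymetrix Drosophila Genome 2.0 arrays per diet, grouped by the diet in their labels. The authors read the images with GCOS 1.4, whose linear intensities they deposited without a log or a division by actin. A scaling to a common target is not given in the sources used here, and a difference in it would shift every gene of an array alike. The log2 of each deposited intensity was taken less that of the AFFX-Dros-ACTIN_M_r probe set on the same array, as in the methods. After 183 AFFX probe sets were left out, 18769 were fitted with limma 3.58.1 (R 4.3.3) on diet alone, with the prior spread following signal level (trend), and genes with a two-sided Benjamini-Hochberg adjusted p under 0.05 were called. The SAM test named in the methods was not used. The fit was tested on simulated data.

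Probe sets were named from the platform annotation (13646 with 1 gene, 402 with several, 4904 with none), with symbols updated for 13543 through gene identifiers. The probe set of highest mean log2 signal stands for a gene. The members, the lists and the alternatives were chosen with earlier results of these data known. Every V-ATPase gene may be named, with full statistics for the brightest gene of each subunit and the 5 smallest p. From each list the gene of smallest p and any called gene are named. Vha100-4, Vha100-5, Mitf, CG5969, Rbcn-3B, Vmat, bam, aly, Yp3, elav, Alp4, Oatp58Db, Jon65Aiii, Acp53Ea, Acp62F and Act88F were given values after these were seen. Assembly factors, lysosome, tubule transport, synaptic and TOR genes and markers of 7 tissues formed the lists. Repeats of each result used no actin reference, median, 75th percentile or quantile scaling, a filter (40th percentile) or floor (20th) on dim probe sets, no trend, a block for the replicate number, a t-test on the same values (p under 0.008 and over 1.5-fold as in the study's results, and, chosen after seeing the data, p up to 0.005 as in its methods), all of a gene's probe sets, and 5 arrays in place of 6. Plots used Python 3.11.15 and matplotlib 3.10.9.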

Additional observations from a re-analysis of the deposited data

How the results depend on the processing

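No V-ATPase gene was called under any alternative other than the replicate block. The change of each V-ATPase gene relative to the median probe set was also compared with the spread between arrays. It moved by less than that spread in all 350 values under other settings and all 198 with an array left out. Centring, the signals as deposited and scaling to the 13 genes shift every gene of an array alike. The block, the t-test and the fit without the trend keep the same estimate. In all of these the relative change is the same by construction, so most of the 350 values could not move. With an array left out, between 2 (control replicate 3) and 11 (METH replicate 3) of the 33 genes changed side of the median probe set. The scaling set the median changes. For all 33 genes, and so for the genes above the median of control signal, which are the same 33, the median of 0.24 with the actin reference was -0.13 as deposited, 0.051 with median centring, 0.0151 with 75th percentile centring and -0.0169 with quantile normalization. Under these settings in the same order the V1 median was -0.12, 0.0658, 0.0299 and -0.0224, that of the 22 genes above the 75th percentile -0.15, 0.034, -0.00187 and -0.0434, and that of the 13 genes above the widest step -0.17, 0.0188, -0.0171 and -0.0627. As deposited and with 75th percentile and quantile scaling the V0 median was -0.14, 0.0113 and -0.0142, that of the 11 genes under the 75th percentile -0.00499, 0.14 and 0.14, and that of the 20 genes below the widest step -0.0596, 0.0902 and 0.0845. With an array left out these medians ran between 0.13 and 0.30 for all 33 genes, 0.16 and 0.31 for V1, 0.12 and 0.31 for V0, 0.14 and 0.27 for the 22 genes, 0.13 and 0.44 for the 11, 0.10 and 0.25 for the 13 and 0.15 and 0.40 for the 20. No gene lay under the median of control signal, so no median could be given there.

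Of all probe sets 236 were called (158 higher, 78 lower). The count was 495 as deposited (114 higher, 381 lower), 300.0 with median centring (131 and 169), 358 with 75th percentile centring (147 and 211), 425 with quantile normalization (161 and 264), 65 with a floor at the 20th percentile (51 and 14), 24 without the trend (17 and 7), 2 with the methods' t-test after Benjamini-Hochberg adjustment (both higher), 221 with that test at p up to 0.005 and at least 1.5-fold (173 and 48, none a V-ATPase gene), and 159 to 219 with an array left out. The lysosome list had 1 lower call, Gal, as deposited, with median, 75th percentile and quantile scaling and with the block, and the tubule transport list 1, CAH2 (adjusted p = 0.0311), as deposited. With an array left out no V-ATPase gene and no gene of the assembly, lysosome, tubule transport, synaptic and TOR lists was called, 0 in each fit. Calls among the marker genes were not counted in those fits.

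The labels give no litter, batch or day shared by same-numbered METH and control samples. Deviations of same-numbered arrays correlated at 0.022, 0.041 and 0.064, the highest of each METH array except replicate 1 (0.039 with control replicate 2). Correlations miss array-wide shifts, so pairing was not settled. With the replicate block 1293 probe sets were called (1033 higher, 260 lower), among them 1 V-ATPase gene, Vha14-2 (log2 fold change 0.59, SE 0.15, adjusted p = 0.0116), and 1 TOR gene. The causes of these shifts were not tested. The smallest adjusted p of a V-ATPase gene ran between 0.182 as deposited and 0.865 without control replicate 1 over the settings without the block.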
